A study of Canis lupus familiaris with 8 samples.

Results

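A set of 46 genes was chosen by the pattern of their RNA levels over 4 groups of MDCK I cells, an epithelial line from dog kidney. Their RNA was more abundant at 500 mOsm than at 300 mOsm with a control siRNA, and with each of 2 siRNAs against Nfat5 it was less abundant at 500 mOsm than in the control cells at 300 mOsm. The read counts of the 8 libraries were divided by median-of-ratios size factors, which gives the normalised counts used here, and m was the log2 of a group's mean normalised count plus 1. A gene was kept where the mean of any group was at least 400, where m at 500 mOsm with the control siRNA exceeded m at 300 mOsm by at least 0.7, and where m with each Nfat5 siRNA was at least 0.3 below m at 300 mOsm. The count table lists 32704 genes. Of these, 9951 reached the mean of 400, 1859 of these were higher at 500 mOsm by 0.7 or more, and 47 met every threshold. The rule left 1 of the 47 out by name, and the other 46 are described. Because the levels in these 8 libraries chose the genes, the differences that the rule used are given without a test. The difference between the siRNA constructs was not itself a term of the rule, and it alone is tested on the set. The rule did bound the level with each construct from above, so genes that only 1 construct took below the bound are not in the set, and the number of members on which the constructs differ is partly fixed by it.

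The study asked whether knockdown of Nfat5 changes ibuprofen uptake by MDCK I cells under hyperosmolality, and sought candidate genes for the carrier. Neg-siRNA (300 mOsm) received a control siRNA in normal growth medium, and Neg-siRNA (500 mOsm) received the same siRNA and spent the last 24 h in medium brought to 500 mOsm with raffinose. Nfat5-1-siRNA (500 mOsm) and Nfat5-2-siRNA (500 mOsm) received different siRNA constructs against Nfat5 and the same 24 h in raffinose medium. All groups were transfected with 100 nM siRNA. The control construct was directed against Slc22a6, which MDCK I cells do not express according to the labels, so no group was free of siRNA. Each group held 2 libraries, 1 from cell passage 15 and 1 from cell passage 17, and values of a group are always given in that order. The total counts were 44515340 and 34564103 at 300 mOsm, 41742578 and 43971253 at 500 mOsm with Neg-siRNA, 46043788 and 45111348 with Nfat5-1-siRNA and 37488252 and 39036966 with Nfat5-2-siRNA. P-values measure the spread between 2 passages of 1 cell line.

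NFAT5 is a transcription factor that is activated when the medium becomes hypertonic and drives genes for the uptake or synthesis of compatible organic osmolytes, such as betaine, taurine, myo-inositol and sorbitol. HIF, the hypoxia-inducible factor, is a different transcription factor. Prolyl hydroxylases of the EGLN family use oxygen to mark its alpha subunits for degradation through VHL, and when they are slowed HIF raises genes of glycolysis, lactate export, vascular signalling and collagen modification, and EGLN3 itself. Of the 46 genes, 5 are on a list of hypoxia-inducible genes drawn from this second group, and 18 have no symbol here. A further 9 genes of that list that could be paired with the table were outside the set. None of the 5 is known as a carrier or an enzyme of compatible osmolytes. A part of HIF in the levels of the set was not tested.

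The siRNA target came first as a check of the labels. Nfat5 has no symbol in the list that pairs genes of the table with names, and it was taken by its place, as the gene ENSCAFG00000020254 beside NQO1 (chr5:80003598-80115099, minus strand, CanFam 3.1), since NFAT5 lies beside NQO1 in RefSeq's annotation of the assembly UU_Cfam_GSD_1.0. In normalised counts this gene stood at 889 and 971 at 300 mOsm with Neg-siRNA, 3485 and 3164 at 500 mOsm with Neg-siRNA, 4249 and 3623 with Nfat5-1-siRNA and 3029.8 and 3067 with Nfat5-2-siRNA. It rose with hyperosmolality by 1.85 ± 0.15 on the log2 scale (SE, edgeR, adjusted p = 1.07e-05) and differed from Neg-siRNA (500 mOsm) by 0.22 ± 0.14 with Nfat5-1-siRNA and by −0.17 ± 0.14 with Nfat5-2-siRNA (edgeR, adjusted p = 1 in both). A lower level of its RNA was therefore not detected in the libraries labelled Nfat5-siRNA, and the labels of these libraries could not be checked on the RNA of their target. NFAT5 protein was not analysed here, and the names Nfat5-1-siRNA and Nfat5-2-siRNA stand for the libraries labelled so throughout. The label of the cell line was not checked either, since none of the 10 kidney epithelium markers chosen for it could be matched by symbol. The list of names holds only genes that the study had called in all 3 of its comparisons on these libraries. Markers without such calls could not be matched, so nothing is known here of their levels.

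Over the 46 genes, the mean at 500 mOsm with Neg-siRNA was 1.63 to 4.55 times that at 300 mOsm, with a median of 2.04. With Nfat5-1-siRNA the mean was between 14.5% and 80.1% of the 300 mOsm mean, with a median of 62.0%, and with Nfat5-2-siRNA between 11.97% and 81.1%, with a median of 58.5%. The ratio of the Neg-siRNA (500 mOsm) mean to the mean with an Nfat5 siRNA had a median of 3.98 with either construct. For 13 genes the mean was under 50% of the 300 mOsm mean with both constructs. The log2 difference of 500 from 300 mOsm with Neg-siRNA had a median of 1.03 in the set, as the rule requires, and of 0 over the 19835 genes tested, those whose counts summed to 5 or more. The differences of the Nfat5-siRNA groups from 300 mOsm had medians of −0.69 and −0.77 in the set, against 0 and 0.08 over the 19835 genes. Fewer cells of a kind and less RNA per cell cannot be told apart in such bulk samples.

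In all 46 genes both Neg-siRNA (500 mOsm) libraries were above both Neg-siRNA (300 mOsm) libraries, a pattern that 32.5% of the 19835 genes showed. Both Nfat5-1-siRNA libraries were below both 300 mOsm libraries in 39 of the 46 (34.7% of all genes), both Nfat5-2-siRNA libraries in 42 (31.8%), and the libraries of both constructs in 37 (27.3%). The rule used these contrasts, and nothing is read from the counts. The same contrasts are given by passage to describe the set. No share over all genes is given for them, and nothing is read from them either. In passage 17 alone, all 46 genes had the 3 differences in the direction of the rule and 40 met their thresholds. In passage 15 alone, 41 had the directions and 27 met the thresholds. With each construct, the passage 17 library was the lower of the pair in 36 of the 46 genes, while over all 19835 genes it was the lower in 46.5% with Nfat5-1-siRNA and 51.7% with Nfat5-2-siRNA. In the Neg-siRNA groups it was the lower in 24 of the 46 at either osmolality, against 45.1% of all genes at 300 mOsm and 48.1% at 500 mOsm.

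**Figure D1:**
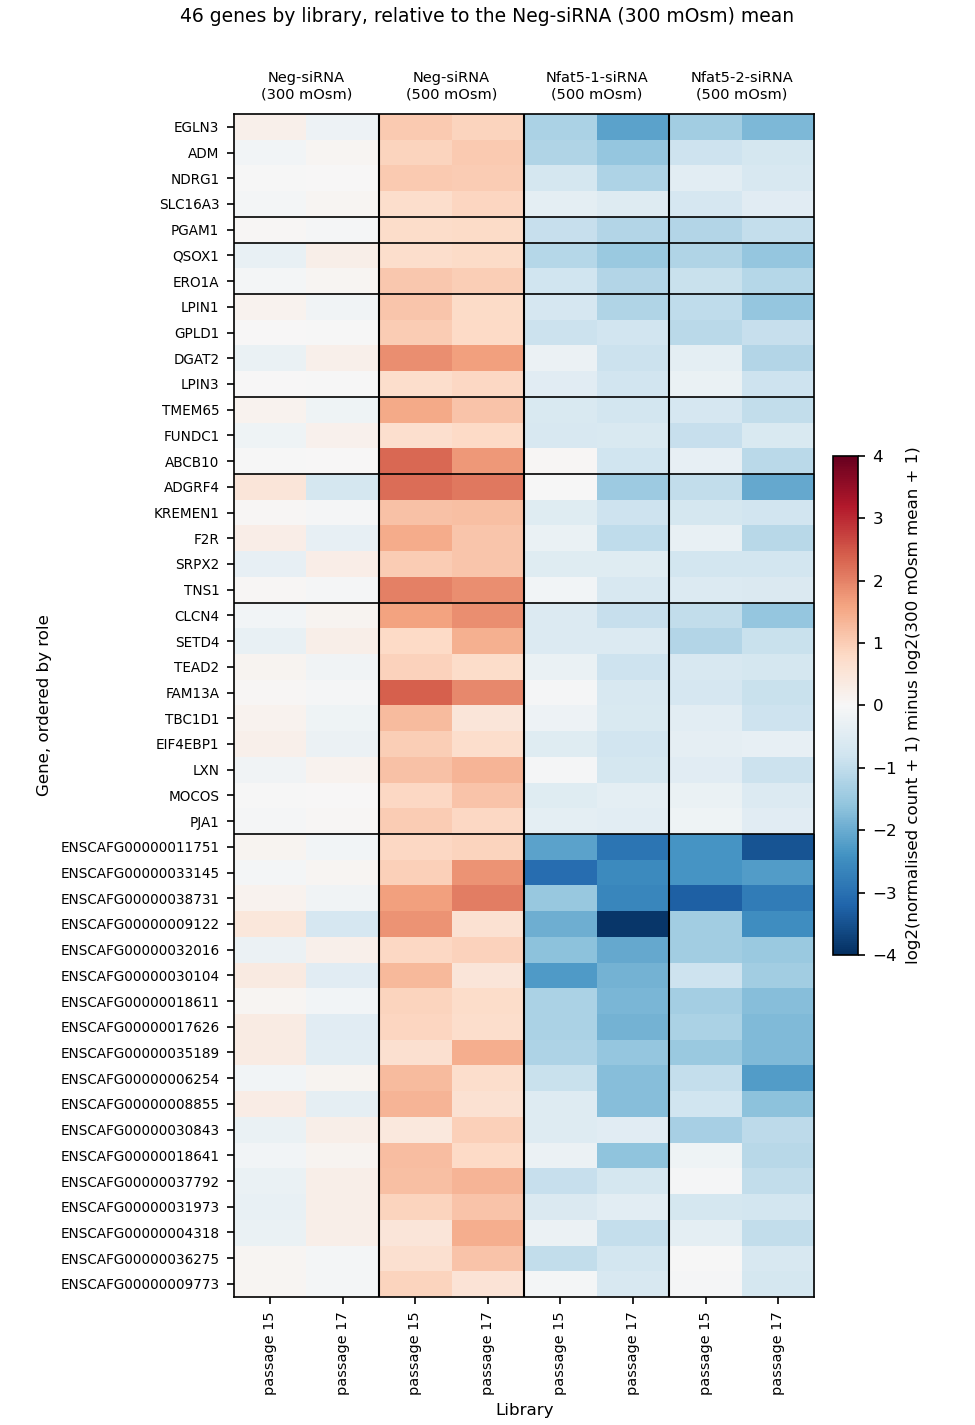
Log2 of the normalised count plus 1 of each of the 46 genes (rows, ordered by role) in each of the 8 libraries (columns, by group and passage), minus log2 of the gene's Neg-siRNA (300 mOsm) mean plus 1. Red is above and blue below the 300 mOsm mean. Both Neg-siRNA (500 mOsm) columns are red in every row. The darkest blue cells lie among the 5 rows at the head of the genes known by identifier only. Rows elsewhere hold cells as dark as some of theirs.

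The libraries spent between 0.247% and 0.932% of their counts on the set. The share was 0.516% and 0.519% at 300 mOsm, 0.932% and 0.922% at 500 mOsm with Neg-siRNA, 0.317% and 0.247% with Nfat5-1-siRNA and 0.328% and 0.287% with Nfat5-2-siRNA. The share of counts in mitochondrially encoded genes also differed between groups. It was 5.67% and 6.52% at 300 mOsm, 4.39% and 5.87% at 500 mOsm with Neg-siRNA, 4.34% and 4.44% with Nfat5-1-siRNA and 4.36% and 4.65% with Nfat5-2-siRNA, and its part in the levels of the set was not tested.

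The pattern was uncommon among genes that were higher at 500 mOsm. Of the 1859 such genes, 114 had a mean below the 300 mOsm mean with Nfat5-1-siRNA, 162 with Nfat5-2-siRNA and 89 with both, and the genes that met the thresholds made up 2.53%. The set has no gap at its edges. The smallest log2 difference for hyperosmolality inside was 0.708, in ENSCAFG00000030843, and the largest just outside was 0.699, in HPRT1, the purine salvage enzyme. At the other edge, ENSCAFG00000036275 was inside with a difference of −0.302 with Nfat5-2-siRNA and ENSCAFG00000006542 outside with −0.298 with Nfat5-1-siRNA. The lowest of the highest group means inside was 451 in ENSCAFG00000035189, and the nearest outside was 397 in ENSCAFG00000014980.

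Symbols were taken from the study's supplementary list alone, which gave one for 28 of the 46 genes. The other 18 are given by their Ensembl identifier, and whether they have a name elsewhere was not looked up. The genes lay on 29 chromosomes, with at most 4 on one, on chromosomes 17 and X. The only members within 10000 bases of each other were ENSCAFG00000038731 (chr17:457214-458621) and ENSCAFG00000035189 (chr17:460590-462980), both on the plus strand with 1968 bases between them. The median exonic length was 2115 bases, against 2507 over the 9951 genes with a group mean of at least 400. Reads were counted without regard to strand, and 3 members share exonic bases with other annotated genes. Their counts may depend on how reads in the shared bases were assigned, which was not analysed here. They are ERO1A, which overlaps 2 genes, 1 of them on the other strand, ENSCAFG00000006254, which overlaps 1 on the other strand, and ENSCAFG00000032016, which overlaps 1 on its own strand.

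The hypoxia-inducible list had 5 genes in the set, EGLN3, ADM, NDRG1, SLC16A3 and the disulfide enzyme ERO1A, which is described with QSOX1. EGLN3 (chr8:12875435-12901737, minus strand) encodes a HIF prolyl hydroxylase that is itself raised by HIF. It had 10210.4 and 7702 at 300 mOsm with Neg-siRNA, 18486 and 16741 at 500 mOsm with Neg-siRNA, 3726 and 2050.1 with Nfat5-1-siRNA and 3401 and 2555 with Nfat5-2-siRNA (normalised counts). The highest Nfat5-siRNA library was below the lower 300 mOsm library, so the groups did not overlap. The group means were 8956 ± 1774, 17614 ± 1234, 2888 ± 1185 and 2978 ± 599 in the same order (mean ± SD, n = 2), a mean 1.97 times higher at 500 mOsm with Neg-siRNA and at 32.2% and 33.3% of the 300 mOsm mean with the constructs. Among the 28 genes with symbols it stood lowest against 300 mOsm.

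ADM (chr21:33472110-33474520, plus strand) encodes the precursor of adrenomedullin, a vasodilator peptide. Its normalised counts were 10776 and 12254 at 300 mOsm with Neg-siRNA, 21399.6 and 23814 at 500 mOsm with Neg-siRNA, 4953 and 3923 with Nfat5-1-siRNA and 6481 and 7043 with Nfat5-2-siRNA. Every library with an Nfat5 siRNA was below both libraries at 300 mOsm, and both Nfat5-1-siRNA libraries were below both Nfat5-2-siRNA libraries. The group means were 11514 ± 1045, 22607 ± 1708, 4438 ± 728 and 6762 ± 397 (SD, n = 2), so that the constructs left 38.5% and 58.7% of the 300 mOsm mean.

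NDRG1 (chr13:29689072-29746038, minus strand) is a cytoplasmic protein raised by hypoxia and other stresses. The libraries held 29476 and 30079 at 300 mOsm with Neg-siRNA, 62014 and 60447 at 500 mOsm with Neg-siRNA, 18372 and 12534 with Nfat5-1-siRNA and 22249 and 19106 with Nfat5-2-siRNA (normalised counts). The Neg-siRNA pairs were nearly alike within a group, while passage 17 was the lower in both Nfat5-siRNA groups, and no Nfat5-siRNA library reached the 300 mOsm level. The means with the constructs were 51.9% and 69.4% of the 300 mOsm mean.

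SLC16A3 (chr9:110345-116647, minus strand) encodes MCT4, which exports lactate from glycolytic cells. It was measured at 12383 and 13839.9 at 300 mOsm with Neg-siRNA, 21164 and 23969 at 500 mOsm with Neg-siRNA, 9911 and 9125 with Nfat5-1-siRNA and 8301 and 9474 with Nfat5-2-siRNA (normalised counts). SLC16A3 stayed nearer to the 300 mOsm level than EGLN3 or ADM with each construct in each passage, with means at 72.6% and 67.8% of the 300 mOsm mean, and its groups did not overlap either.

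PGAM1, phosphoglycerate mutase of glycolysis (chr28:10720326-10726754, plus strand), was the most abundant gene of the set. It had 49471 and 47242 at 300 mOsm with Neg-siRNA, 80252 and 82449.6 at 500 mOsm with Neg-siRNA, 25756 and 21411 with Nfat5-1-siRNA and 21314 and 25130.1 with Nfat5-2-siRNA (normalised counts). The means were 48356 ± 1576, 81351 ± 1554, 23584 ± 3072 and 23222 ± 2698 (SD, n = 2), 1.68 times higher at 500 mOsm with Neg-siRNA and at 48.8% and 48.0% of the 300 mOsm mean with the constructs. Per kilobase of exon, which allows levels of different genes to be compared, PGAM1 stood at 106341 normalised counts in Neg-siRNA (500 mOsm). The next were NDRG1 at 18771, QSOX1 at 18529, EGLN3 at 16324 and ADM at 14112, and the lowest of the set was CLCN4 at 142.

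The named members included a pair of enzymes that form disulfide bonds in the secretory pathway. ERO1A (chr8:28861426-28914478, minus strand) reoxidises protein disulfide isomerase in the endoplasmic reticulum, passing the electrons to oxygen. Its 8 libraries had 23765 and 26708 at 300 mOsm with Neg-siRNA, 53396 and 50409 at 500 mOsm with Neg-siRNA, 14502 and 11274 with Nfat5-1-siRNA and 13668 and 11556 with Nfat5-2-siRNA (normalised counts). The means were 2.06 times higher at 500 mOsm with Neg-siRNA and 51.07% and 50.0% of the 300 mOsm mean with the constructs, and no Nfat5-siRNA library came near the lowest 300 mOsm library. QSOX1 (chr7:13718799-13752959, plus strand) is a sulfhydryl oxidase that makes disulfides in proteins on their way out of the cell. It had 19334 and 28133 at 300 mOsm with Neg-siRNA, 38905 and 40474 at 500 mOsm with Neg-siRNA, 10747 and 8473 with Nfat5-1-siRNA and 10381 and 8108 with Nfat5-2-siRNA (normalised counts). The 300 mOsm pair was unequal, with a mean of 23733 ± 6222 (SD, n = 2), and yet its lower library was above every Nfat5-siRNA library. The means with the constructs were 40.5% and 39.0% of that mean.

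The set held 4 enzymes of lipid chemistry. LPIN1 (chr17:8393894-8481357, plus strand) and LPIN3 (chr24:29343635-29359104, plus strand) are phosphatidate phosphatases, which make diacylglycerol. LPIN1 had 3361 and 2768 at 300 mOsm with Neg-siRNA, 6664 and 5248 at 500 mOsm with Neg-siRNA, 1939 and 1341 with Nfat5-1-siRNA and 1512 and 1049.8 with Nfat5-2-siRNA (normalised counts). LPIN3 had 2239 and 2197 at 300 mOsm with Neg-siRNA, 3634 and 3903 at 500 mOsm with Neg-siRNA, 1632 and 1311 with Nfat5-1-siRNA and 1852 and 1240.5 with Nfat5-2-siRNA. Both were below the 300 mOsm libraries in every Nfat5-siRNA library, with means at 53.5% and 41.8% of the 300 mOsm mean for LPIN1 and 66.3% and 69.7% for LPIN3. DGAT2 (chr21:22831183-23001371, minus strand) turns diacylglycerol into triglyceride. It had 552 and 762 at 300 mOsm with Neg-siRNA, 2405 and 2036 at 500 mOsm with Neg-siRNA, 559.5 and 361 with Nfat5-1-siRNA and 504 and 289 with Nfat5-2-siRNA (normalised counts). The Nfat5-1-siRNA library of passage 15 was slightly above the 300 mOsm library of its passage, so these groups overlapped, while both Nfat5-2-siRNA libraries were below the 300 mOsm pair. Its mean at 500 mOsm with Neg-siRNA was 3.38 times that at 300 mOsm. GPLD1 (chr35:22495389-22556335, minus strand) is a phospholipase D that releases GPI-anchored proteins. It was low, at 279 and 277 at 300 mOsm with Neg-siRNA, 559 and 489 at 500 mOsm with Neg-siRNA, 152 and 164 with Nfat5-1-siRNA and 129.9 and 146 with Nfat5-2-siRNA (normalised counts), and the members of each pair were close to each other, with the constructs at 56.7% and 49.7% of the 300 mOsm mean.

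**Figure D2:**
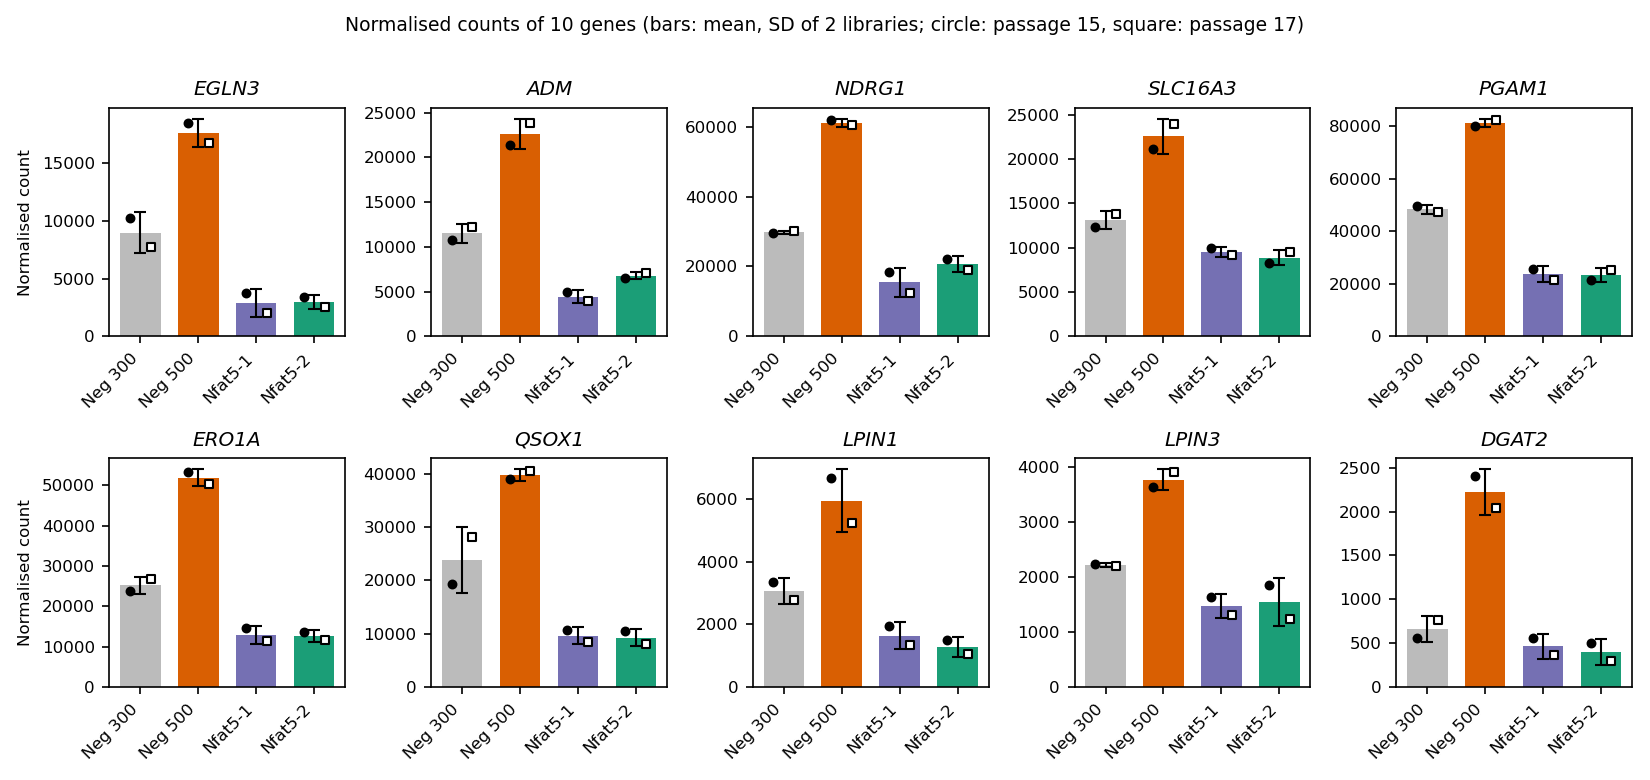
Normalised counts of EGLN3, ADM, NDRG1, SLC16A3, PGAM1, ERO1A, QSOX1, LPIN1, LPIN3 and DGAT2 in the 4 groups. Bars are means, error bars the SD of 2 libraries, circles passage 15 and squares passage 17, and each panel has its own linear axis from 0. In 9 of the 10 panels both Nfat5-siRNA groups lie below both 300 mOsm libraries, and in DGAT2 the Nfat5-1-siRNA circle is level with the 300 mOsm circle.

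The other members with symbols were 17 genes of varied function. Of 3 proteins of mitochondrial membranes, the transporter ABCB10 was 4.14 times higher at 500 mOsm with Neg-siRNA, TMEM65 2.54 times and the mitophagy receptor FUNDC1 1.67 times. With the constructs they were between 56.5% and 80.1% of the 300 mOsm mean. ABCB10, like ADGRF4 and TNS1, was chosen after its values were seen. It had 3133 and 3225 at 300 mOsm with Neg-siRNA, 15738 and 10603 at 500 mOsm with Neg-siRNA, 3263 and 1833 with Nfat5-1-siRNA and 2523 and 1500.2 with Nfat5-2-siRNA (normalised counts). Its Nfat5-1-siRNA library of passage 15 was slightly above both 300 mOsm libraries, while both Nfat5-2-siRNA libraries were lower.

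Of 5 genes of the cell surface and matrix, the means at 500 mOsm with Neg-siRNA were 2.09 to 4.55 times those at 300 mOsm. They were ADGRF4, an adhesion G protein-coupled receptor, TNS1, which links integrins to actin, the thrombin receptor F2R, the Dickkopf receptor KREMEN1 and the secreted protein SRPX2. The counts of ADGRF4 were low, at 163 and 71.7 at 300 mOsm with Neg-siRNA, 555 and 515 at 500 mOsm with Neg-siRNA, 116 and 42.0 with Nfat5-1-siRNA and 58.9 and 27.7 with Nfat5-2-siRNA (normalised counts). The 300 mOsm libraries differed more than 2-fold between passages, and the Nfat5-1-siRNA pair overlapped them. TNS1 had 2512 and 2338 at 300 mOsm with Neg-siRNA, 9884 and 8832 at 500 mOsm with Neg-siRNA, 2257 and 1539 with Nfat5-1-siRNA and 1673 and 1609 with Nfat5-2-siRNA (normalised counts). Its 4 Nfat5-siRNA libraries were all below the 300 mOsm pair, the passage 15 library of Nfat5-1-siRNA by little.

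The 9 remaining named genes were at 60.7% to 80.1% of the 300 mOsm mean with Nfat5-1-siRNA and at 41.9% to 80.9% with Nfat5-2-siRNA. FAM13A, which carries a RhoGAP domain, had 4.51 times and the chloride/proton exchanger CLCN4 3.35 times the 300 mOsm mean in Neg-siRNA (500 mOsm). The latexin gene LXN stood at 2.41 times and the methyltransferase SETD4 at 2.21 times. MOCOS, the molybdenum cofactor sulfurase, the RabGAP TBC1D1, the ubiquitin ligase PJA1, the translation repressor EIF4EBP1 and the Hippo pathway transcription factor TEAD2 lay between 1.78 and 1.99 times. F2R is the only member with a symbol in which the libraries of both constructs overlapped those at 300 mOsm.

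The 18 genes known by identifier only held the lowest levels with the siRNAs. The 5 whose mean difference from 300 mOsm over both constructs was lowest were all among them. ENSCAFG00000011751 (chr33:25256136-25319526, plus strand) had 1038 and 883 at 300 mOsm with Neg-siRNA, 1705 and 1765 at 500 mOsm with Neg-siRNA, 217 and 127 with Nfat5-1-siRNA and 185 and 85.9 with Nfat5-2-siRNA (normalised counts). Its Neg-siRNA pairs were each close together and all 4 Nfat5-siRNA libraries were far below them, at 17.9% and 14.1% of the 300 mOsm mean for the group means. ENSCAFG00000033145 (chr10:49045887-49067516, minus strand) had 579.7 and 656 at 300 mOsm with Neg-siRNA, 1185 and 2142 at 500 mOsm with Neg-siRNA, 73.1 and 106 with Nfat5-1-siRNA and 121 and 131 with Nfat5-2-siRNA. The Nfat5-siRNA libraries were here at 14.5% and 20.4% of the 300 mOsm mean. ENSCAFG00000038731, the first of the neighbours on chromosome 17, had 241 and 198 at 300 mOsm with Neg-siRNA, 685 and 918 at 500 mOsm with Neg-siRNA, 76.7 and 35.0 with Nfat5-1-siRNA and 21.98 and 30.6 with Nfat5-2-siRNA. Nfat5-2-siRNA left 11.97% of its 300 mOsm mean, the lowest value of the set, and its neighbour ENSCAFG00000035189 stood at 37.8% and 32.4% with the constructs.

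ENSCAFG00000009122 (chr18:42782384-42799970, minus strand) had 676 and 307 at 300 mOsm with Neg-siRNA, 1711 and 745 at 500 mOsm with Neg-siRNA, 126 and 32.4 with Nfat5-1-siRNA and 188 and 86.9 with Nfat5-2-siRNA (normalised counts). Passage 15 was the higher in every group, by more than 2-fold, and within each passage the order of the groups was the same, with Nfat5-1-siRNA lowest. ENSCAFG00000032016 (chr14:7958610-7958797, minus strand), with 186 exonic bases the shortest of the set, had 443 and 602 at 300 mOsm with Neg-siRNA, 925 and 982 at 500 mOsm with Neg-siRNA, 167 and 126 with Nfat5-1-siRNA and 199 and 186 with Nfat5-2-siRNA. Its exonic bases are shared with another gene, as given above. Over the other 13 genes known by identifier only, the mean with Nfat5-1-siRNA was between 23.7% and 79.2% of the 300 mOsm mean and with Nfat5-2-siRNA between 32.4% and 81.1%.

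The constructs were then compared with each other on the 46 genes. With edgeR's quasi-likelihood test over 19835 genes and the Benjamini-Yekutieli adjustment, no member differed between Nfat5-2-siRNA and Nfat5-1-siRNA at an adjusted p under 0.05, and 0.0403% of all genes did. At an unadjusted p under 0.05 it was 8 of 46, against 14.9% of all genes, and DESeq2 called 0 members, against 1.07% of all genes. The fitted log2 differences ran from −1.11 to 0.96. In normalised counts, 30 members were lower with Nfat5-2-siRNA and 16 higher, and 32 had the same sign in both passages, 22 of them lower and 10 higher. No share over all genes is given for these counts of direction, and nothing is read from them. The log2 difference of the group means had a median of −0.105 in the set and of −0.0693 over the 9951 genes with a group mean of at least 400.

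Passages were shared by the groups, and with the passage as a block in the edgeR fit 3 members were higher with Nfat5-2-siRNA (2.39% of all genes) and 1 was lower (2.55%). ADM differed by 0.58 ± 0.13 on the log2 scale (SE, edgeR with the block, adjusted p = 0.00914), with both Nfat5-2-siRNA libraries above both of Nfat5-1-siRNA. ENSCAFG00000030104 was higher by 0.90 ± 0.20 (adjusted p = 0.0093) and ENSCAFG00000009122 by 0.87 ± 0.23 (adjusted p = 0.0434). ENSCAFG00000030843 was lower by this fit, at −0.71 ± 0.17 (adjusted p = 0.0194). The value of ENSCAFG00000009122 rested on single libraries: without the block it was 0.77, and it was 0.0941 without the passage 17 library of Nfat5-1-siRNA, 0.113 without the passage 15 library of Nfat5-2-siRNA, 2.05 without the passage 15 library of Nfat5-1-siRNA and 1.21 without the passage 17 library of Nfat5-2-siRNA. All 4 had the same sign in both passages, and all had an adjusted p of 1 without the block. EGLN3 (0.02 ± 0.24 without the block), PGAM1 (−0.05 ± 0.16), ERO1A (−0.06 ± 0.17) and QSOX1 (−0.08 ± 0.20) had differences smaller than their standard errors.

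**Figure D3:**
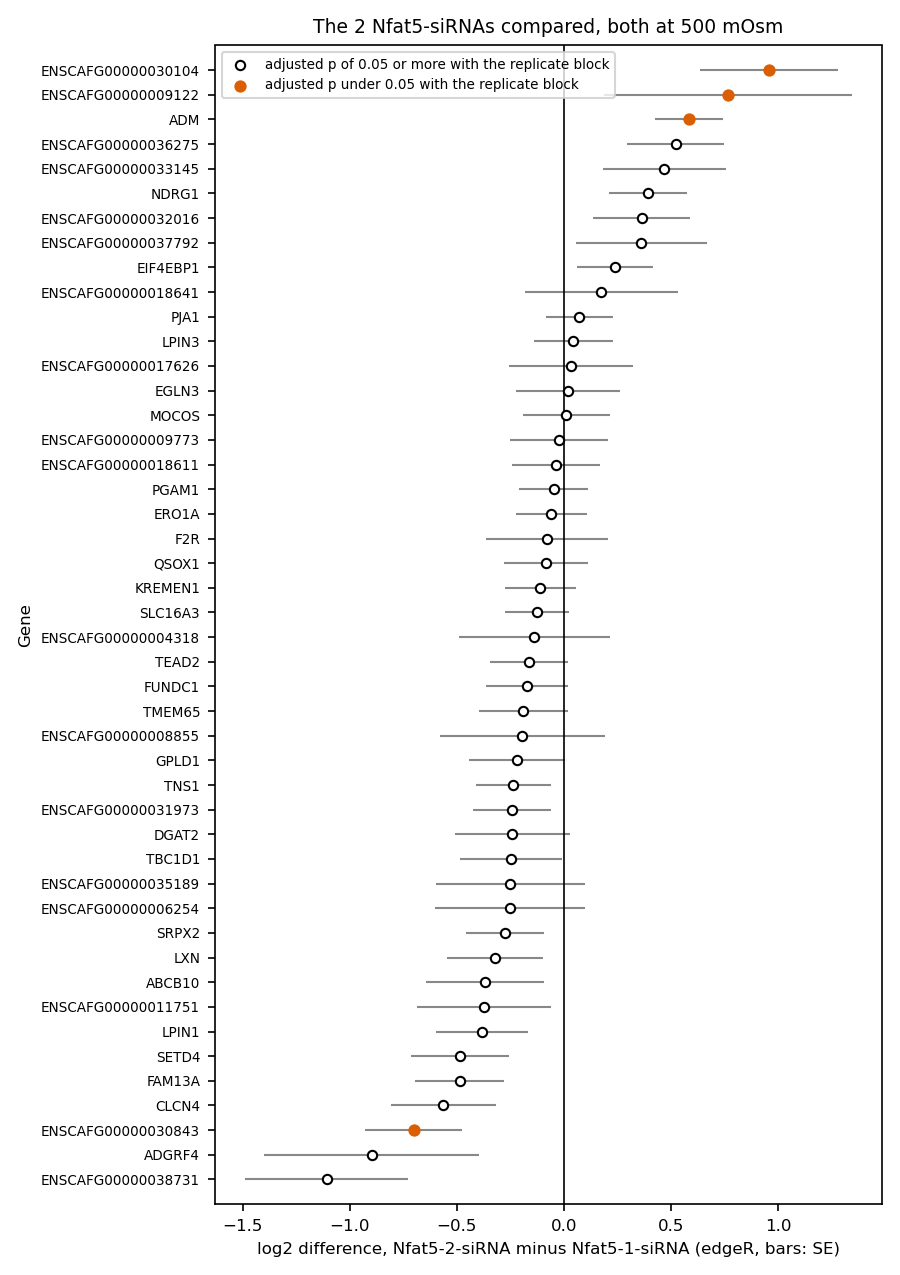
Log2 difference between Nfat5-2-siRNA (500 mOsm) and Nfat5-1-siRNA (500 mOsm) for each of the 46 genes, from edgeR without the block. Bars are standard errors and the vertical line marks no difference. Filled points are the 4 genes with an adjusted p under 0.05 when the passage was a block, 3 to the right of the line and 1 to the left.

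Other genes of the same pathways were taken from lists of 169 genes in all, of which 40 could be paired with the table by symbol and 30 were outside the set. The pairing came from the study's own list of genes that it had called in all 3 of its comparisons on these libraries, so the directions counted here are not independent evidence. By edgeR at an adjusted p under 0.05, 25 of the 30 rose with hyperosmolality (11.3% of all genes tested) and 3 fell (9.23%). Against Neg-siRNA (500 mOsm), 21 fell with Nfat5-1-siRNA (4.53%), and with Nfat5-2-siRNA 27 fell (7.38%) and 1 rose (4.67%). Against Neg-siRNA (300 mOsm), 13 were higher with Nfat5-1-siRNA (13.2%) and 4 lower (12.2%), and 10 were higher with Nfat5-2-siRNA (12.7%) and 6 lower (12.9%). With the passage as a block the 21 were 29 (11.9%), the 27 were 29 (15.3%), the 13 were 17 (19.3%) and the 10 were 12 (18.9%), while the 3 that fell with hyperosmolality were 4 (15.7%), the 6 lower with Nfat5-2-siRNA were 8 (18.9%) and the count lower with Nfat5-1-siRNA was again 4 (18.1%). The rule took genes below 300 mOsm with both constructs out of these lists, so the balance of higher and lower against 300 mOsm is partly fixed by it. The comparisons share control libraries and are given side by side only. The 21 became 7 without the passage 17 library of Nfat5-1-siRNA and 13 without either Neg-siRNA (500 mOsm) library, the 27 became 17 without the passage 15 library of Neg-siRNA (500 mOsm), the 13 became 8 without the passage 15 library of Nfat5-1-siRNA, and the 3 became 1 without the passage 17 library at 300 mOsm or the passage 15 library of Neg-siRNA (500 mOsm). These genes differed among themselves in where the siRNAs left them relative to 300 mOsm.

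Of the 14 components of the HIF pathway listed, EGLN3 and EGLN1 could be paired, and HIF1A, VHL and the other 10 were not analysed here. EGLN1 (chr4:8053479-8111156) encodes the main HIF prolyl hydroxylase of most cells. It had 4459.9 and 4228 at 300 mOsm with Neg-siRNA, 7471 and 7286 at 500 mOsm with Neg-siRNA, 3853 and 3330.2 with Nfat5-1-siRNA and 2906 and 2663 with Nfat5-2-siRNA (normalised counts). It rose with hyperosmolality by 0.78 ± 0.14 on the log2 scale (SE, edgeR, adjusted p = 0.00721). The difference from 300 mOsm was −0.28 ± 0.14 with Nfat5-1-siRNA (edgeR, adjusted p = 1) and −0.67 ± 0.14 with Nfat5-2-siRNA (edgeR, adjusted p = 0.017). The rise and the latter difference missed the threshold when any of the 4 libraries they compare was left out, at 0.71 to 0.78 and −0.73 to −0.58. With a library left out, EGLN1 differed from 300 mOsm by −0.39 to −0.18 with Nfat5-1-siRNA. Its siRNA libraries were all below the 300 mOsm pair, at 82.7% and 64.1% of the mean, and the difference with Nfat5-1-siRNA of less than 0.3 kept it outside the set.

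The hypoxia-inducible list had 44 genes, of which 14 could be paired: 5 members (EGLN3, ADM, ERO1A, NDRG1 and SLC16A3) and 9 others. Of the 9, 7 rose with hyperosmolality (11.3% of all genes tested) and 1 fell (9.23%) by edgeR. Against Neg-siRNA (500 mOsm), 6 fell with Nfat5-1-siRNA (4.53%), and 8 fell (7.38%) and 1 rose (4.67%) with Nfat5-2-siRNA. Against 300 mOsm, 5 were higher (13.2%) and 2 lower (12.2%) with Nfat5-1-siRNA. With Nfat5-2-siRNA, 4 were higher (12.7%) and 3 lower (12.9%) than at 300 mOsm. With the passage as a block 2 fell with hyperosmolality (15.7% of all genes), 8 fell (11.9%) and 1 rose (9.61%) with Nfat5-1-siRNA, and 5 were higher than at 300 mOsm with Nfat5-2-siRNA (18.9%). Without the passage 17 library of Nfat5-1-siRNA the 6 that fell became 3, and without its passage 15 library the 5 that were higher became 3. The 8 that fell with Nfat5-2-siRNA became 4 without the passage 15 library of Neg-siRNA (500 mOsm), and 5 without its passage 17 library or that of Nfat5-2-siRNA. PLOD2, a lysyl hydroxylase of collagen, had 3203 and 3065 at 300 mOsm with Neg-siRNA, 44324 and 44014 at 500 mOsm with Neg-siRNA, 11481 and 7982 with Nfat5-1-siRNA and 8247 and 7413 with Nfat5-2-siRNA (normalised counts). It fell from its high level at 500 mOsm, with log2 differences of −2.20 ± 0.18 and −2.54 ± 0.18 with the constructs (edgeR, adjusted p = 0.000109 and 3.92e-05), and every siRNA library remained above both 300 mOsm libraries. LOX, which cross-links collagen, had 7589 and 13055 at 300 mOsm with Neg-siRNA, 107507 and 87891 at 500 mOsm with Neg-siRNA, 39399.7 and 25395 with Nfat5-1-siRNA and 39660.0 and 27631 with Nfat5-2-siRNA. It too stayed above 300 mOsm with the constructs, by 1.65 ± 0.27 and 1.67 ± 0.27 (edgeR, adjusted p = 0.00318 and 0.00272), the former not past the threshold without the passage 15 library of Nfat5-1-siRNA, at 1.29.

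PLOD1, another lysyl hydroxylase, had 4729.6 and 5392 at 300 mOsm with Neg-siRNA, 16124 and 14808 at 500 mOsm with Neg-siRNA, 5393 and 4638 with Nfat5-1-siRNA and 4089.7 and 3793 with Nfat5-2-siRNA (normalised counts). With the constructs its means were 99.1% and 77.9% of the 300 mOsm mean, and neither difference passed the test (edgeR, adjusted p = 1 and 0.473). ZNF395, a zinc finger protein, had 8686 and 7979 at 300 mOsm with Neg-siRNA, 4501 and 4202 at 500 mOsm with Neg-siRNA, 1002 and 969 with Nfat5-1-siRNA and 922 and 762 with Nfat5-2-siRNA (normalised counts). It fell with hyperosmolality, with a log2 difference of −0.92 ± 0.14 (edgeR, adjusted p = 0.00253) and was lower again with both constructs, at 11.8% and 10.1% of the 300 mOsm mean. The other 4 of the 9, VEGFA, RORA, PLIN2 and WSB1, were outside the rule for naming genes, RORA because its mean CPM, a count scaled to library size, was 4.69 and under the minimum of 10, and were chosen after their values were seen. The angiogenic factor VEGFA had means 4.31 times the 300 mOsm mean with Neg-siRNA at 500 mOsm and 2.62 and 2.43 times with the constructs. The lipid droplet protein PLIN2 had 1.72, 2.69 and 3.62 times, higher with the constructs than without. The difference was 0.63 ± 0.15 with Nfat5-1-siRNA (edgeR, adjusted p = 0.106, or 0.000409 with the passage as a block) and 1.03 ± 0.15 with Nfat5-2-siRNA (edgeR, adjusted p = 0.00332). The nuclear receptor RORA was low, at 26.6 and 59.5 at 300 mOsm with Neg-siRNA, 486 and 444 at 500 mOsm with Neg-siRNA, 191 and 137 with Nfat5-1-siRNA and 72.9 and 113 with Nfat5-2-siRNA (normalised counts), and the libraries at 300 mOsm were unequal. Its fitted log2 differences from 300 mOsm were 3.47 ± 0.38 with Neg-siRNA at 500 mOsm and 1.95 ± 0.37 and 1.101 ± 0.38 with the constructs. In the same order they were 2.94, 1.47 and 0.66 without the passage 15 library at 300 mOsm and 4.13, 2.61 and 1.76 without the passage 17 library. WSB1, a subunit of a ubiquitin ligase, had means 0.623, 0.346 and 0.350 times the 300 mOsm mean.

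In the glycolysis and lactate list, 4 of 29 genes could be paired, the members PGAM1 and SLC16A3 and the genes PFKL and HK2. HK2, hexokinase 2, had 4089 and 4069 at 300 mOsm with Neg-siRNA, 14637 and 16110.4 at 500 mOsm with Neg-siRNA, 8342 and 6656 with Nfat5-1-siRNA and 7279 and 6910.4 with Nfat5-2-siRNA (normalised counts). It rose by 1.93 ± 0.15 with hyperosmolality (edgeR, adjusted p = 1.04e-05) and stayed above 300 mOsm with the constructs by 0.87 ± 0.15 and 0.77 ± 0.15 (edgeR, adjusted p = 0.00441 and 0.0113). The former missed the threshold without the passage 17 library at 300 mOsm (0.86) or the passage 15 library of Nfat5-1-siRNA (0.70), and the latter without any of the 4 libraries it compares (0.73 to 0.82). PFKL, the liver type of phosphofructokinase, had 22603 and 23059 at 300 mOsm with Neg-siRNA, 12971 and 13931 at 500 mOsm with Neg-siRNA, 4953 and 4279.6 with Nfat5-1-siRNA and 3774 and 4233 with Nfat5-2-siRNA. It fell with hyperosmolality, with a log2 difference of −0.75 ± 0.15 (edgeR, adjusted p = 0.0132) and was at 20.2% and 17.5% of the 300 mOsm mean with the constructs. Its fall missed the threshold without the passage 17 library at 300 mOsm (−0.74) or the passage 15 library of Neg-siRNA (500 mOsm) (−0.75).

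From the list for disulfide formation and folding in the endoplasmic reticulum, 3 of 20 genes could be paired, ERO1A, QSOX1 and HSP90B1. HSP90B1, the chaperone GRP94, had 31744 and 34608 at 300 mOsm with Neg-siRNA, 86341 and 62754 at 500 mOsm with Neg-siRNA, 45754 and 29353 with Nfat5-1-siRNA and 45918 and 31343 with Nfat5-2-siRNA (normalised counts). Its rise of 1.18 ± 0.24 passed the test (edgeR, adjusted p = 0.0163), but not without the passage 15 (1.08) or passage 17 (1.24) library at 300 mOsm or the passage 15 library of Neg-siRNA (500 mOsm) (0.88). The differences from Neg-siRNA (500 mOsm) of −1.01 ± 0.24 and −0.997 ± 0.24 did not (edgeR, adjusted p = 0.091 and 0.0757), but did with the passage as a block (adjusted p = 5.43e-09 and 7.36e-09). They ranged from −1.37 to −0.71 and from −1.29 to −0.65 with a library left out. With the constructs the means of HSP90B1 were 113% and 116% of the 300 mOsm mean.

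Of the 32 genes for glycerolipid and phospholipid synthesis, 4 could be paired, the members LPIN1, LPIN3 and DGAT2 and the gene PCYT2, the regulatory enzyme of phosphatidylethanolamine synthesis. PCYT2 had 4063 and 4055 at 300 mOsm with Neg-siRNA, 6645 and 7522 at 500 mOsm with Neg-siRNA, 3400.3 and 3486 with Nfat5-1-siRNA and 2515 and 3138 with Nfat5-2-siRNA (normalised counts). All siRNA libraries were below the 300 mOsm pair, with log2 differences of −0.24 ± 0.15 with Nfat5-1-siRNA (edgeR, adjusted p = 1) and −0.55 ± 0.15 with Nfat5-2-siRNA (edgeR, adjusted p = 0.0969, or 0.00134 with the passage as a block).

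Of the 27 genes for cholesterol synthesis and uptake, 11 could be paired and none of these 11 was in the set. By edgeR, 9 rose with hyperosmolality and 1 fell. Against Neg-siRNA (500 mOsm), 7 fell with Nfat5-1-siRNA and 10 with Nfat5-2-siRNA, and with the passage as a block 11 fell with each (11.9% and 15.3% of all genes). Against 300 mOsm, 2 were higher and 1 lower with Nfat5-1-siRNA, or 5 (19.3% of all genes) and 1 (18.1%) with the block. With Nfat5-2-siRNA 2 were lower than at 300 mOsm, or 3 (18.9%) with the block. The 7 that fell became 2 without the passage 17 library of Nfat5-1-siRNA and 4 without the passage 15 library of Neg-siRNA (500 mOsm). The 2 that were higher with Nfat5-1-siRNA became 0 without any of the 4 libraries compared, the 2 that were lower with Nfat5-2-siRNA became 1 without any of the libraries but that of passage 15 of Nfat5-2-siRNA, and the 1 that fell with hyperosmolality was TM7SF2. INSIG1, which holds SREBP in the endoplasmic reticulum, had 8787 and 10116 at 300 mOsm with Neg-siRNA, 30689.8 and 34272 at 500 mOsm with Neg-siRNA, 8432 and 7343 with Nfat5-1-siRNA and 7815 and 9767 with Nfat5-2-siRNA (normalised counts). It came back to 83.5% and 93.0% of the 300 mOsm mean, with overlapping libraries for Nfat5-2-siRNA. SQLE, squalene epoxidase, had 15124 and 14124 at 300 mOsm with Neg-siRNA, 34484 and 30534 at 500 mOsm with Neg-siRNA, 13311 and 11593 with Nfat5-1-siRNA and 10127 and 8009.6 with Nfat5-2-siRNA. Its log2 difference from 300 mOsm was −0.72 ± 0.16 with Nfat5-2-siRNA (edgeR, adjusted p = 0.027) and −0.24 ± 0.16 with Nfat5-1-siRNA (edgeR, adjusted p = 1). The former missed the threshold in 7 of the 8 fits with a library left out, and passed only without the passage 15 library of Nfat5-2-siRNA, over a range of −0.90 to −0.57.

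FDFT1, squalene synthase, had 8006 and 7095 at 300 mOsm with Neg-siRNA, 38741 and 33519.8 at 500 mOsm with Neg-siRNA, 15477 and 9586 with Nfat5-1-siRNA and 10574 and 7687 with Nfat5-2-siRNA (normalised counts). Its means with the constructs were 166% and 121% of the 300 mOsm mean, above it by 0.73 ± 0.22 with Nfat5-1-siRNA (edgeR, adjusted p = 0.172, or 3.59e-05 with the block). That difference ranged from 0.34 to 1.03 with a library left out. TM7SF2, a sterol reductase, had 4226 and 3809 at 300 mOsm with Neg-siRNA, 2128 and 2567 at 500 mOsm with Neg-siRNA, 734 and 745 with Nfat5-1-siRNA and 599 and 517 with Nfat5-2-siRNA. It fell with hyperosmolality, with a log2 difference of −0.76 ± 0.15 (edgeR, adjusted p = 0.0182) and stood at 18.4% and 13.9% of the 300 mOsm mean with the constructs. Its fall missed the threshold without the passage 15 (−0.72) or passage 17 (−0.84) library at 300 mOsm, the passage 15 library of Neg-siRNA (500 mOsm) (−0.68) or the passage 17 library of Nfat5-1-siRNA (−0.76).

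Of 9 osmoprotective genes listed, 6 could be paired and none of these 6 was in the set. By edgeR all 6 rose with hyperosmolality (11.3% of all genes tested). Relative to Neg-siRNA (500 mOsm), 5 fell with Nfat5-1-siRNA (4.53%) and 6 with Nfat5-2-siRNA (7.38%). With either construct 5 of the 6 remained higher than at 300 mOsm (13.2% and 12.7%). With the passage as a block all 6 fell with Nfat5-1-siRNA (11.9%). All 6 then remained higher than at 300 mOsm with either construct (19.3% and 18.9%). Only genes that the study had called in all 3 of its comparisons on these libraries could be paired. The counts are therefore not independent evidence. The 5 that fell with Nfat5-1-siRNA became 1 without the passage 17 library of that group, 2 without the passage 15 library of Neg-siRNA (500 mOsm), and 3 without the other library of either group. The 6 that fell with Nfat5-2-siRNA became 3 without either library of that group or the passage 15 library of Neg-siRNA (500 mOsm). AKR1B1, aldose reductase, which makes sorbitol, had 736 and 928 at 300 mOsm with Neg-siRNA, 45289 and 47829.7 at 500 mOsm with Neg-siRNA, 13106 and 7307 with Nfat5-1-siRNA and 11599 and 10818 with Nfat5-2-siRNA (normalised counts). The betaine carrier SLC6A12 had 105 and 216 at 300 mOsm with Neg-siRNA, 86873 and 75206 at 500 mOsm with Neg-siRNA, 32289.8 and 16867 with Nfat5-1-siRNA and 23736 and 20612 with Nfat5-2-siRNA. The taurine carrier SLC6A6 had 10200.3 and 8568 at 300 mOsm with Neg-siRNA, 136026 and 98749.8 at 500 mOsm with Neg-siRNA, 55909 and 41569 with Nfat5-1-siRNA and 49479.6 and 38269.5 with Nfat5-2-siRNA. In these 3 genes every siRNA library was below both Neg-siRNA (500 mOsm) libraries and several times above both 300 mOsm libraries. The myo-inositol carrier SLC5A3, under the CPM minimum for naming at a mean of 6.32, and the calcium-binding protein S100A4, outside the 4 of its list with the largest change, were chosen after their values were seen. SLC5A3 had 12.8 and 7.29 at 300 mOsm with Neg-siRNA, 772 and 481 at 500 mOsm with Neg-siRNA, 300.5 and 161 with Nfat5-1-siRNA and 188 and 142 with Nfat5-2-siRNA (normalised counts), and its difference with Nfat5-1-siRNA from Neg-siRNA (500 mOsm) of −1.46 ± 0.33 had an adjusted p of 0.0716 by edgeR, or 4.28e-07 with the block. S100A4 had 1914 and 2963 at 300 mOsm with Neg-siRNA, 8599 and 9682 at 500 mOsm with Neg-siRNA, 4498 and 3557 with Nfat5-1-siRNA and 3036 and 3886 with Nfat5-2-siRNA (normalised counts). It was above 300 mOsm by 0.72 ± 0.21 and 0.48 ± 0.21 with the constructs (edgeR, adjusted p = 0.134 and 0.87, or 1.65e-05 and 0.0191 with the block). With a library left out these differences ranged from 0.45 to 1.06 and from 0.25 to 0.82. The water channel AQP1 had 2.75 and 26.7 at 300 mOsm with Neg-siRNA, 1181 and 1504 at 500 mOsm with Neg-siRNA, 126 and 141 with Nfat5-1-siRNA and 129 and 213 with Nfat5-2-siRNA (normalised counts), and its level at 300 mOsm was too low and unequal for a close ratio. By edgeR the differences from 300 mOsm with the constructs were 7.27 ± 0.39 and 7.09 ± 0.39 for SLC6A12, 3.61 ± 0.25 and 3.72 ± 0.25 for AKR1B1 and 2.37 ± 0.22 and 2.19 ± 0.22 for SLC6A6, with adjusted p of 4.48e-05 or less.

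**Figure D4:**
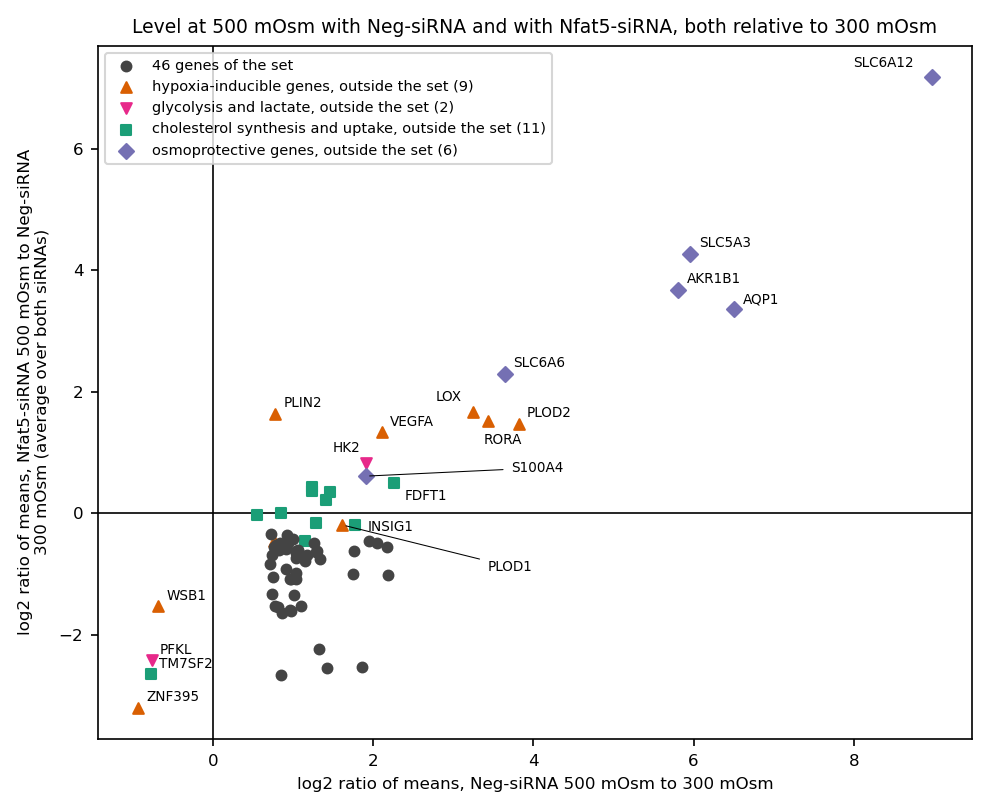
Each point is a gene. The x axis is the log2 ratio of the Neg-siRNA (500 mOsm) mean to the Neg-siRNA (300 mOsm) mean, and the y axis the log2 ratio of the Nfat5-siRNA means, averaged over both constructs, to the 300 mOsm mean. The 46 genes fill the lower right corner by the rule, 5 of the osmoprotective genes lie high on the right and S100A4 nearer the 0 line, PLOD2, LOX, VEGFA and HK2 lie above the 0 line, and PFKL, ZNF395, WSB1 and TM7SF2 lie at the lower left.

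Markers of other cell types were listed too, and 1 of the 17 markers of fibroblasts, endothelium and leukocytes could be paired, the fibroblast gene PDGFRA, while the other 16 were not analysed here. PDGFRA had 1494 and 1295 at 300 mOsm with Neg-siRNA, 2775 and 2245 at 500 mOsm with Neg-siRNA, 1261 and 1386 with Nfat5-1-siRNA and 1168 and 1418 with Nfat5-2-siRNA (normalised counts). It was higher at 500 mOsm with Neg-siRNA and level with 300 mOsm with the constructs. Only genes that the study had called in each of its comparisons on these libraries could be paired. A change of PDGFRA in those comparisons was therefore a condition of its being seen, and nothing is read from it about cell types. The part of PDGFRA in the levels of the set was not tested.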

How the data were processed

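RNA of MDCK I cells was sequenced in 8 libraries, as paired-end reads of length 51. According to the study's methods and the submitters' processing notes, the authors mapped the reads to CanFam 3.1 with HISAT2 2.0.5 and counted them on the exons of the Ensembl 92 annotation with featureCounts 1.5.1. The deposited counts were not normalized. The strand option in the file header was 0 and no option to count fragments was set, so the mates of a pair may both have been counted. The table also holds exon coordinates and summed exon lengths, and the number of library columns not used was 0.

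The 46 genes and the gene lists were chosen with earlier results of these data known. Normalised counts were counts divided by median-of-ratios size factors. Tests used edgeR 4.0.16 in R 4.3.3 on the counts of all 8 libraries in 4 groups, with TMM, a summed count of at least 5, the quasi-likelihood test, two-sided, and the Benjamini-Yekutieli adjustment over 19835 genes at 0.05. Alternatives were DESeq2's size factors, no filter, filterByExpr, DESeq2 1.42.0, Benjamini-Hochberg adjustment, a replicate block, only the 4 libraries compared, and leaving out each library in turn. The block pairs libraries by the labels, which give passage 15 for replicate 1 and passage 17 for replicate 2. Deviations of same-numbered libraries correlated across 12424 genes in all 6 pairs of groups (Pearson's r between 0.151 and 0.526). The fits were tested on simulated data, and no outcome of that test is used here. Gene symbols came from the study's supplementary list. Members of the set were named with all their library values where they belonged to a pathway list, were enzymes of lipid or redox chemistry or were among the 5 lowest relative to 300 mOsm, and ABCB10, ADGRF4 and TNS1 were added after their values were seen; of other list genes whose CPM averaged 10 or more, EGLN1 and the 4 per list with the largest mean change over both constructs against Neg-siRNA (500 mOsm) were named. A search of promoters for motifs was not run, and sequences were not analysed here. Other steps used Python 3.11.15, numpy 2.4.6, pandas 2.3.3, scipy 1.17.1 and matplotlib 3.10.9.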

Additional observations from a re-analysis of the deposited data

How the results depend on the processing

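Each group had 2 libraries, which limits the precision, and the part of depth was not tested. The rule found 56 genes with a group mean of at least 200, 41 with at least 800, 51 on TMM-scaled counts, 29 in passage 15 alone and 63 in passage 17 alone, of which 27 and 40 were among the 46. Leaving out each library in turn gave 36 to 58. Between the constructs, 3 members were higher and 1 lower with the replicate block, and none in either direction under the other settings, leaving out each library included. Over the list genes outside the set, 1 rose with Nfat5-1-siRNA relative to Neg-siRNA (500 mOsm) with no low-count filter, with DESeq2, with the Benjamini-Hochberg adjustment and with the replicate block, against 0 otherwise. Leaving out each library gave 1 to 3 genes lower with hyperosmolality, 7 to 20 lower with Nfat5-1-siRNA and 17 to 27 lower with Nfat5-2-siRNA relative to Neg-siRNA (500 mOsm), and 8 to 13 higher with Nfat5-1-siRNA than at 300 mOsm. These fits have fewer libraries, and a group left with 1 library is assumed to vary like the others. The other counts over the lists stayed within 1.5 times. Of the values of single named genes over all settings, 1686 kept their direction and their side of the threshold, 114 lost the threshold, 103 of them when a library was left out, and 52 gained it. The replicate block took 16 of them past the threshold, the 4 differences between the constructs and 12 of list genes (FDFT1, HSP90B1, PCYT2, PLIN2, RORA, S100A4, SLC5A3, VEGFA and WSB1), and changed no other call among them. Direction changed in 8 cases, all of them differences from 300 mOsm that had not passed the test, when a library was left out. With Nfat5-1-siRNA their ranges were −0.13 to 0.0884 for PLOD1, −0.18 to 0.46 for HSP90B1 and −0.19 to 0.0415 for PDGFRA on the log2 scale. With Nfat5-2-siRNA they were −0.0017 to 0.45 for FDFT1, −0.11 to 0.43 for HSP90B1, −0.31 to 0.0206 for INSIG1 and −0.29 to 0.0196 for PDGFRA.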
